A study of Mus musculus with 9 samples.

Results

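The genes described here are those of HT22 cells in which all 6 libraries made after oxygen-glucose deprivation (OGD) lay above, or all 6 lay below, the 3 libraries of cells that had not been deprived. HT22 is an immortalised line from mouse hippocampal neurons. The control cells had no treatment. OGP cells spent 2 h without oxygen and glucose, and then 24 h of reoxygenation with PBS. In the OGE group the 2 h and 24 h were kept, with extracellular vesicles of mesenchymal stem cells derived from human iPS cells (hiPS-MSC-EVs) in place of PBS. All 3 groups of 3 libraries were wild-type HT22. The 6 OGD libraries against the 3 control libraries ask what remains changed a day after OGD whether or not vesicles were given. Levels are FPKM, fragments scaled to gene length and to the reads of the library. The comparison took in 13245 genes, those averaging 0.5 FPKM or more across all 9 libraries. Of these, 1306 (9.86%) lay above in all 6 OGD libraries, 1563 (11.8%) lay below, and 2869 (21.7%) did either.

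Reads in genes numbered 15026700 to 19476806 per library. Control replicate 1 and OGE replicate 3 stood apart on the third principal component, at 33.1 and -19.4, which took 14.5% of the variance, and counts without them are given beside the lists described at length. The medium after OGD is the standard medium in the sample labels and one without ordinary serum in the methods, so serum and OGD itself cannot be told apart here. The libraries are called biological replicates without mention of separate cultures, so the spread behind each p-value may be technical. No source used here says that strand was kept, and antisense genes may then share reads with their partners. Of 18 neuron markers, 16 had a mean under 0.5 FPKM, among them Rbfox3, Syp, Snap25 and Grin1, and only Tubb3 and Map2 reached 1 FPKM. Of 10 mesenchymal markers, 8 reached 1 FPKM, with Col1a1 at 777 and Vim at 483 FPKM in control. Of 8 astrocyte markers, 3 did, Gja1, Slc1a3 and Sox9, at 30.9, 9.78 and 5.21 FPKM in control. The summed astrocyte markers were 44.0 to 49.1 FPKM in control, 21.5 to 22.6 in OGP and 39.6 to 48.0 in OGE. Of the microglia and oligodendrocyte markers 1 each reached 1 FPKM, and of the endothelium markers 0. The RNA thus carried few of the transcripts that define a mature neuron. The summed neuron markers were 8.26 to 10.8 FPKM in control, 12.7 to 13.7 in OGP and 13.8 to 17.8 in OGE. Most of this was Tubb3, a tubulin that was itself higher after OGD (0.61 ± 0.13 on the log2 scale, SE). Its means in control, OGP and OGE were 7.95, 10.8 and 14.0 FPKM, and those of Map2 were 1.32, 2.13 and 1.34. In such bulk libraries, fewer cells of a kind and less RNA per cell cannot be told apart.

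Cells without oxygen and glucose lose ATP, stop much of their protein synthesis and shift to anaerobic glycolysis through the hypoxia-inducible factors, and when oxygen returns these factors are degraded again. Proteins that misfold in the endoplasmic reticulum (ER) set off the unfolded protein response, in which ATF6 and XBP1 raise the ER chaperones, and the kinase PERK, through ATF4, raises genes of amino acid supply. BMP ligands act through SMAD proteins on the Id genes, whose products bind helix-loop-helix factors and keep them from DNA. IL-6 and its relatives act through STAT3 on secreted proteins of the acute phase.

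A gene was called a DEG where limma gave an adjusted p of at most 0.05 over all genes tested and a fold of at least 1.5 on log2(FPKM + 0.5), the mean of OGP and OGE against control. There were 620 DEGs higher (4.68%) and 654 lower (4.94%) after OGD, 9.62% of the genes tested in either direction. Of the 1306 genes above, 491 were DEGs (3.71% of all genes tested), and of the 1563 below, 538 were (4.06%). The test and the separation of the libraries rest on the same values and are not independent of each other. A further 129 DEGs were higher and 116 lower with at least 1 OGD library among the controls. Another 701 genes above and 885 below passed the adjusted p but not the fold, and 114 and 140 did not pass the adjusted p. The median log2 difference over all genes above was 0.51 in OGP and 0.49 in OGE, and over all genes below -0.49 and -0.44. The rule fixes the signs of these medians, so nothing is read from them. Over all genes tested the median was 0.00. Without control replicate 1 and OGE replicate 3, 803 DEGs lay above and 874 below.

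**Figure D1:**
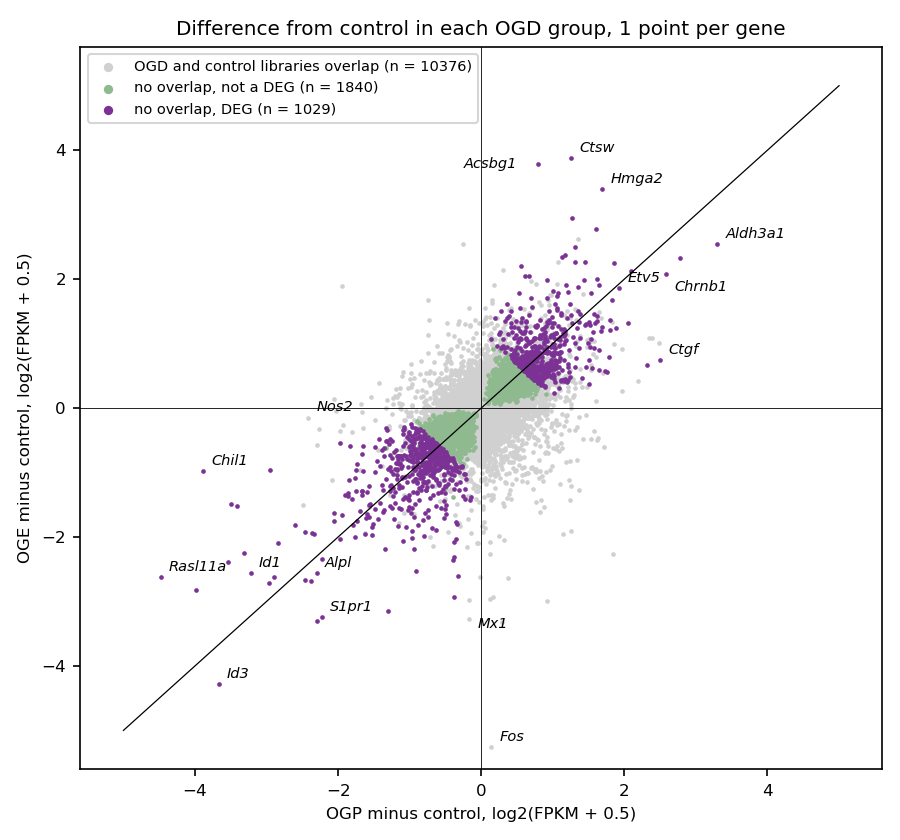
Log2 difference from control of each gene tested in OGP (x axis) and in OGE (y axis), both on log2(FPKM + 0.5), with equal differences on the diagonal. The 1029 DEGs without overlap (purple) fill the lower left and upper right, as the rule requires, Id3 and Aldh3a1 lie far out in both groups, and Fos, Mx1 and Nos2 (grey) differ from control in 1 group only.

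Most of these DEGs were not called between OGE and OGP, though a larger share of them was called than of all genes tested. Both calls come from the same fit, with the same error and the same fold threshold. Genes of small spread are favoured in both, so nothing is read from the larger share. Of the 491 DEGs above, 408 were not called between OGE and OGP, 54 were higher in OGE and 29 lower, where 449 (3.39%) of all genes tested were higher and 626 (4.73%) lower in OGE, 8.12% in either direction. Of the 538 below, 426 were not called, 42 were higher in OGE and 70 lower. A miss of the threshold does not show that OGP and OGE were alike. Taken group by group against the shared controls, 286 of the 491 were DEGs in OGP and in OGE, 106 in OGP only, 96 in OGE only and 3 in neither. Of the 538, these numbers were 347, 88, 102 and 1. OGP alone had DEGs in 12.1% of the genes tested and OGE alone in 11.5%.

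Many genes of chaperones and other proteins of the ER were higher after OGD. Of 27 genes of the unfolded protein response tested, 14 rose, 0 fell, and 22 lay above in all 6 OGD libraries. None had an unadjusted p under 0.05 in the lower direction in limma, and voom on the recovered reads also called 14 higher and 0 lower. The list median was 0.60, at 0.61 in OGP and 0.64 in OGE. Without control replicate 1 and OGE replicate 3, 16 rose. Hspa5 (BiP), the ER chaperone that also holds the sensors inactive, stood at 322, 267 and 308 FPKM in the control libraries, at 586, 553 and 629 in OGP and at 580, 589 and 558 in OGE. The 6 OGD values thus lay clear of the controls and among each other. The log2 difference was 0.97 (SE 0.083, adjusted p = 6.27e-05, limma).

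Hsp90b1 (GRP94), a chaperone of the ER lumen, went from 328, 217 and 265 FPKM to 466, 482 and 537 in OGP and 495, 517 and 453 in OGE. Manf, a secreted ER protein with neurotrophic activity, went from 39.5, 40.9 and 38.4 FPKM to 79.3, 83.2 and 89.1 in OGP and 86.3, 88 and 76.3 in OGE, and was among the genes in which the groups' differences from control were closest, at 1.07 in each. Derl3, which moves misfolded proteins out of the ER, had the largest rise of the list, 1.42 (SE 0.16, adjusted p = 0.000243, limma), from 0.0575, 0.296 and 0.270 FPKM to 1.21 to 1.88. At so low a level it rests on few reads. Xbp1, the transcription factor gene, rose by 0.83, Dnajb9, a co-chaperone of BiP, by 1.19, Sdf2l1 by 1.11 and Creld2 by 0.90. The genes of the 3 sensors themselves, Eif2ak3 (PERK), Ern1 (IRE1) and Atf6, differed by 0.28, 0.46 and 0.35 and were not DEGs. Their values against those of the chaperones are all on the log2(FPKM + 0.5) scale.

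Promoters of these genes can hold the ER stress element, CCAAT and CCACG with 9 bases of any kind between them, to which ATF6 binds together with NF-Y. It was searched on both strands in the 250 bases before the start of 9068 of 13243 tested symbols, in 11528 windows of the RefSeq annotation on GRCm38.p6. It occurred in 15 windows (0.13%) of 15 genes. All 6 OGD libraries lay above control in 10 of these genes and below in 0, and 8 were DEGs, all higher: Calr, Creld2, Derl3, Dnajc3, Hsp90b1, Hspa5, Pdia6 and Zfp57. Canx and Syvn1 lay above without being DEGs, at 0.44 and 0.39, and in Acacb, Alg12, Gm6566, Hnrnpa3 and Pan2 the libraries overlapped. Alg12 shares its stretch with Creld2, head to head. A second form of the element, ATTGG and CCACG with 1 base between them, was in 8 windows (0.0694%), among them those of Herpud1 (0.60) and Lrif1 (0.71), DEGs above, and Lgalsl (-0.70), a DEG below. Of the windows of all DEGs above, 8 of 408 (1.96%) held the first form, and of those of DEGs below, 0 of 520. Among the genes of the unfolded protein response it was in 9 of 24 windows (37.5%), so most of these matches are of genes chosen for this list. The only one of these DEGs outside the list was Zfp57, a zinc finger protein that keeps genomic imprints, which had 4.96, 3.85 and 4.35 FPKM in control, 7.98, 6.98 and 8.28 in OGP and 7.85, 6.52 and 8.37 in OGE.

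Of the 5 sequences that follow, 4 are promoter stretches with no annotated exon and 1, that of Hspa5, is the match with 5 bases on either side, since GENCODE places an exon there. They are shown because these genes rose together in all 6 OGD libraries, 5′ to 3′ on the strand of the gene, with matches to the element in capitals. In Hsp90b1 there were 2, in opposite directions.
Hspa5, chr2:34772020-34772048, plus strand: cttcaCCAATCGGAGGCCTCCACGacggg
Hsp90b1, chr10:86705510-86705694, minus strand: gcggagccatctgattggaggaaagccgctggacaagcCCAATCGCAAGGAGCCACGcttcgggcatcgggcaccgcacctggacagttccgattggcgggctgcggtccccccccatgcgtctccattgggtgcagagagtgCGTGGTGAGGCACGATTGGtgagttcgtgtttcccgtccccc
Calr, chr8:84846935-84847181, minus strand: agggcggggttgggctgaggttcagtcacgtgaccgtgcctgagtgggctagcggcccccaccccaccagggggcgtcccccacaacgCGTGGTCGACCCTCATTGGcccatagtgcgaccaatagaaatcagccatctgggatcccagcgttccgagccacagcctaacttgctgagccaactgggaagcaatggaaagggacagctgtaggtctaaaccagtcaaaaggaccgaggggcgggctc
Creld2, chr15:88819396-88819645, plus strand: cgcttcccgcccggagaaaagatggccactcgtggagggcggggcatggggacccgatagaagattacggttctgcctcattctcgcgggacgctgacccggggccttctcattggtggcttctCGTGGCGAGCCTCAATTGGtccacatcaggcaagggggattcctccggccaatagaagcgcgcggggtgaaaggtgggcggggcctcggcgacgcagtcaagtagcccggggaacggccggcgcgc
Derl3, chr10:75893148-75893397, plus strand: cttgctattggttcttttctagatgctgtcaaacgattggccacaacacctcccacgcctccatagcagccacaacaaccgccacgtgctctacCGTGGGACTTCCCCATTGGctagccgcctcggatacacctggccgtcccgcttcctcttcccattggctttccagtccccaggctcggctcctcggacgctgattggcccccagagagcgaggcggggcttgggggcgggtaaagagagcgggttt

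**Figure D2:**
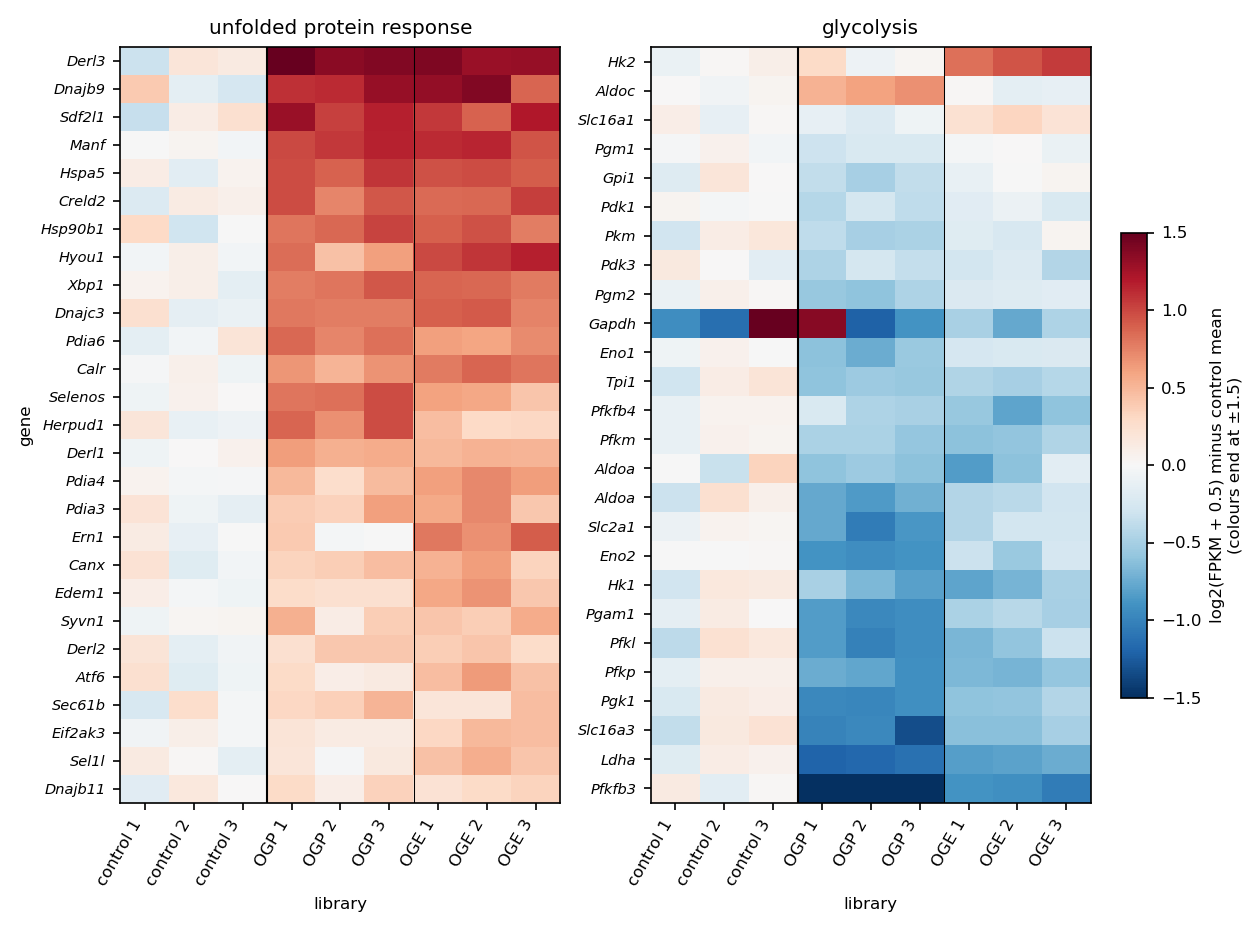
Log2(FPKM + 0.5) of each gene model minus its control mean (colour) in the 9 libraries (columns) for the unfolded protein response (left, 27 models) and glycolysis (right, 26 models), ordered by the OGD difference. On the left nearly every OGD cell is red at a like depth in OGP and OGE, and on the right most are blue and paler in OGE. Gapdh stands out for its scatter within groups.

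The ATF4 response was higher in part. Of 36 genes tested, 7 rose, 0 fell and 19 lay above, with a list median of 0.37. In the lower direction, 0 had an unadjusted p under 0.05 in limma and voom called 0, though 1 fell without control replicate 1. Without that library and OGE replicate 3, 7 rose and 1 fell. The median was 0.50 in OGP and 0.27 in OGE, and 4 of the genes were lower and 1 higher in OGE than in OGP. Required in OGP and OGE each, the call held for 4. Cth, the enzyme that makes cysteine from cystathionine, went from 4.99, 4.73 and 5.38 FPKM to 15.5, 17.1 and 16.9 in OGP and 15.2, 12.9 and 12.9 in OGE, a log2 difference of 1.49 (SE 0.077, adjusted p = 4.60e-06, limma). Slc7a11, the cystine and glutamate exchanger, rose from 2.88, 2.07 and 2.14 FPKM to 5.88, 5.36 and 5.17 in OGP and further, to 9.31, 9.33 and 9.11, in OGE. Trib3, a pseudokinase induced through ATF4, went the other way between the groups, with 13.1 to 16.2 FPKM in control, 41.1 to 47.8 in OGP and 20.1 to 27.4 in OGE. Nupr1, a stress-induced chromatin protein, rose by 1.15, Mthfd2, a mitochondrial folate enzyme, by 0.71, and Atf5 and the arginine transporter gene Slc7a1 by 0.73 each. Atf4 itself (0.57) and Ddit3 (CHOP, 0.49) lay above in all 6 libraries without reaching the fold, and the asparagine synthetase gene Asns differed by 0.39. ATF4 binds the sequence TGATGNAA, which was found in 213 (1.85%) of the windows searched and in 10 of 35 (28.6%) of those of this list. Of the 202 genes holding it, 32 lay above and 24 below, where 9.86% and 11.8% of all genes tested did so. Of these 202, 15 were DEGs higher and 10 lower, beside 4.68% and 4.94% of all genes tested. Slc7a11 has it in both directions at 66 and 47 bases before its start, and this stretch is shown with the matches in capitals.
Slc7a11, chr3:50443615-50443863, minus strand: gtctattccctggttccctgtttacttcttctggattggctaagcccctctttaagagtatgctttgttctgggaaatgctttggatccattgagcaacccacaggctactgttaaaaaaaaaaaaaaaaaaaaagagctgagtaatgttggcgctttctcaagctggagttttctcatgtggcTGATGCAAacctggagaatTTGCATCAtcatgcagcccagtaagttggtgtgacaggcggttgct

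Transcripts of the mitochondrial genome, which codes for 13 proteins of the respiratory chain and ATP synthase, were higher after OGD. Of 13 genes, 9 rose, 0 fell and 6 lay above, with a list median of 0.93. In the lower direction 0 had an unadjusted p under 0.05 in limma, and voom called 10 higher and 0 lower. mt-Nd1, a subunit of complex I, stood at 2610, 1335 and 1503 FPKM in control, at 3024, 4246 and 3971 in OGP and at 4039, 4255 and 3041 in OGE (log2 difference 1.10, SE 0.22, adjusted p = 0.00603, limma). Control replicate 1 was the highest control and nearly reached the lowest OGD library. Mitochondrial reads were 2.31% of reads in genes in that library, 1.10% and 1.46% in the other controls, and 2.03% to 3.25% in the 6 OGD libraries, and the part of this share in the result was not tested. None of the 13 was called between OGE and OGP, and 0 had an unadjusted p under 0.05 there in limma. The 9 calls became 4 under quantile normalization, 3 with no filter on low values and 5 without control replicate 2, but 11 without control replicate 1 and OGE replicate 3. mt-Atp8, whose gene overlaps mt-Atp6, was at 0 to 2.97 FPKM.

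Single protein-coding genes above were taken by the smaller of their differences in OGP and OGE. Aldh3a1, an aldehyde dehydrogenase that oxidises products of lipid peroxidation, had 2.45, 2.52 and 2.47 FPKM in control, 29.5, 27.7 and 29.4 in OGP and 17.2, 16.8 and 16.3 in OGE. The 3 groups were separate, with OGE between the others, and the pooled log2 difference was 2.92 (SE 0.056, adjusted p = 1.41e-08, limma). Among the 12 aldehyde dehydrogenase genes tested it was joined only by Aldh2, at 0.60, whose call was lost under 13 alternatives. Hmga2, an AT-hook protein of embryonic chromatin, had 4.20, 2.92 and 3.34 FPKM in control, 12.9, 10.9 and 13.2 in OGP and 38.4, 38.5 and 47.1 in OGE, so here OGP was the group between. Chrnb1, the beta subunit of the muscle acetylcholine receptor, went from 0.520, 0.605 and 0.829 FPKM to 6.55, 6.17 and 6.34 in OGP and 5.01, 3.62 and 4.43 in OGE.

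The ETS factor genes Etv5 and Etv4, which FGF and ERK signals induce, rose by 1.90 (SE 0.089) and 1.80 (SE 0.19). Etv5 had 1.13, 1.18 and 1.44 FPKM in control, 6.81, 5.68 and 6.02 in OGP and 5.83, 5.5 and 6.2 in OGE, 6 values that lay close together. Dusp4, a phosphatase that inactivates ERK, rose from 1.5, 1.98 and 2.16 FPKM to 6.14, 4.63 and 5.36 in OGP and to 10.0, 9.22 and 14.0 in OGE. The others that rose were Tcim (2.05), the autophagy gene Atg9b (2.19, from 0.0747 to 0.174 FPKM in control), Ifitm1, a membrane protein that restricts virus entry (1.77), Mnt, a repressor that pairs with MAX (1.61), and Evi2a (1.43). The rule also took the secreted carbonic anhydrase gene Car6 (1.00), which with Manf and mt-Nd1 was closest between OGP and OGE.

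**Figure D3:**
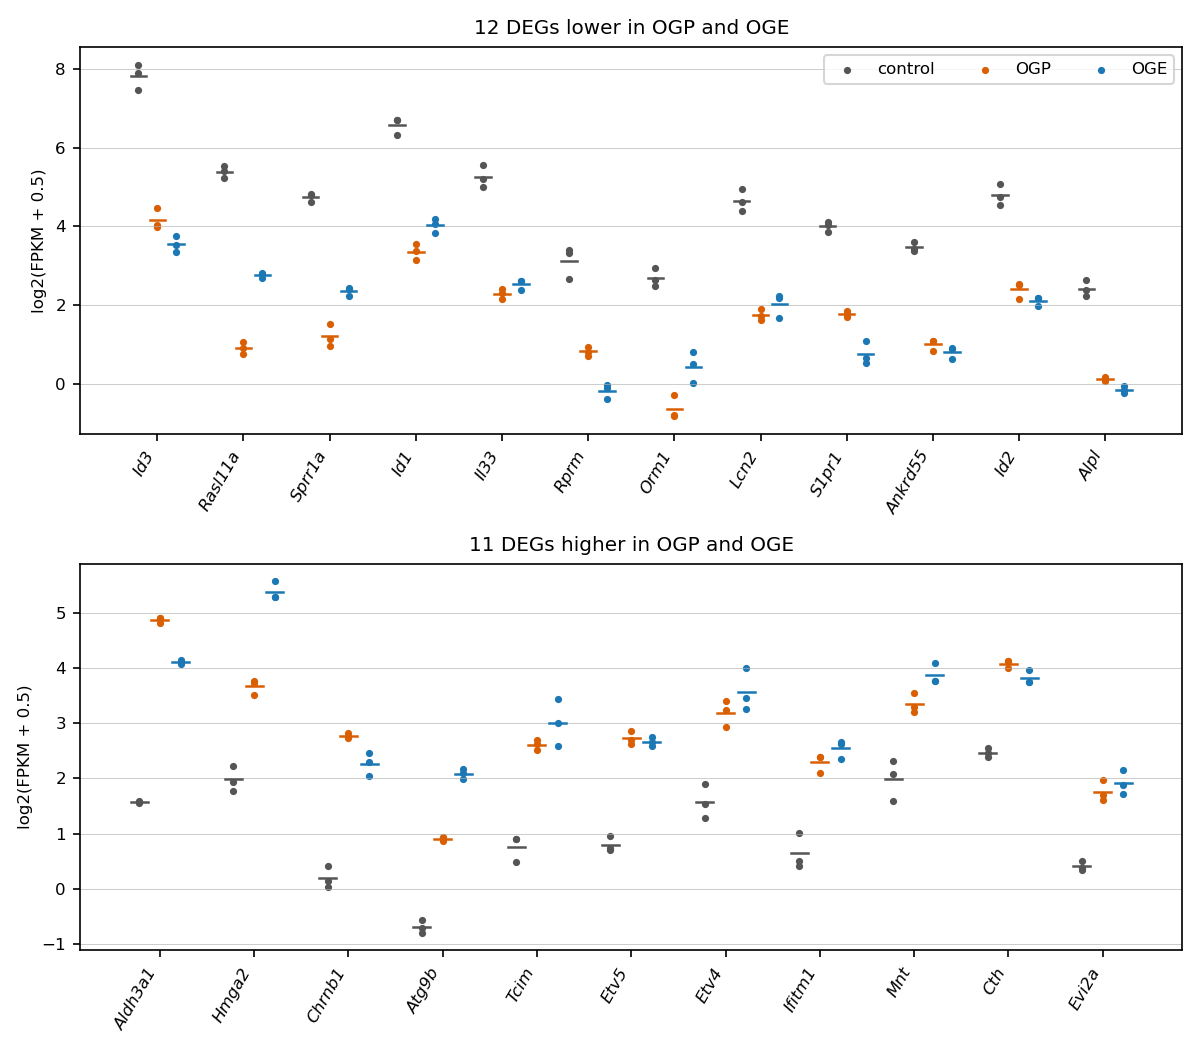
Log2(FPKM + 0.5) (y axis) in each library (points) with the group mean (bars) for 12 DEGs lower (top) and 11 higher (bottom) after OGD, control in grey, OGP in orange and OGE in blue. In every gene all 6 OGD points lie on one side of the 3 control points, while OGP and OGE lie apart in some, such as Rasl11a, Rprm and Hmga2.

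Id genes fell in all 6 libraries, and Id3 had the lowest log2 difference of the list. It had 177, 275 and 239 FPKM in control, 15.3, 21.6 and 15.8 in OGP and 9.70, 10.9 and 13.1 in OGE, a log2 difference of -3.98 (SE 0.16, adjusted p = 2.34e-06, limma). Id1 had 79.9, 104 and 103 FPKM in control, 9.84, 11.3 and 8.26 in OGP and 16.1, 13.6 and 17.7 in OGE. Id2 had 33.4, 26.3 and 22.7 FPKM in control, 3.98, 5.31 and 5.19 in OGP and 4.05, 3.42 and 3.99 in OGE. Each fell far below its lowest control value in all 6 libraries.

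Of 17 tested genes of the ID proteins and BMP signalling, 8 fell, 0 rose, 8 lay below and 1 above. At an unadjusted p under 0.05, 2 were higher in limma, and voom called 8 lower and 0 higher. The same counts, 8 and 0, were obtained without control replicate 1 and OGE replicate 3. Smad9, a receptor-regulated SMAD of BMP signals, fell from 6.19, 5.28 and 5.41 FPKM to 0.602, 0.569 and 0.675 in OGP and 0.898, 1.32 and 1.13 in OGE. The helix-loop-helix gene Atoh8 fell by 2.28 on the log2 scale, the homeobox gene Msx1 by 1.64 and Smad6, an inhibitory SMAD, by 1.22. The ligand gene Bmp4 fell by 1.06, from 15.6 ± 1.5 FPKM (SD, n = 3) to 12.1 ± 1.27 in OGP and 4.25 ± 0.456 in OGE. The receptor genes Bmpr1a, Bmpr2 and Acvr1 and the genes of Smad1 and Smad5 differed by -0.16 to 0.05 and were not DEGs. The SMAD-bound sequence GGCGCC was in 6 of 16 windows of this list (37.5%) and in 17.1% of all windows. It was in 19.6% of the windows of DEGs below and 8.82% of those of DEGs above. In the other lists with windows its share ran from 0% (acute-phase proteins) to 32.1% (hypoxia targets), with 31.2% in immediate-early genes.

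A part of the glycolysis genes was lower a day after OGD. Of 26 gene models tested, 10 fell, 0 rose and 16 lay below, with a list median of -0.53, at -0.58 in OGP and -0.42 in OGE. At an unadjusted p under 0.05, 1 was higher in limma, voom called 12 lower and 0 higher, and 15 fell without control replicate 1 and OGE replicate 3. The call held in OGP and OGE each for 4. Ldha, the lactate dehydrogenase subunit, fell from 623, 764 and 736 FPKM to 307, 310 and 323 in OGP and 396, 403 and 419 in OGE, a log2 difference of -0.98 (SE 0.081, adjusted p = 5.23e-05, limma). Pfkfb3, which makes the activator of phosphofructokinase, fell from 5.65, 4.52 and 5.17 FPKM to 1.41, 1.25 and 0.886 in OGP and 2.51, 2.46 and 2.21 in OGE, so OGE again lay between OGP and control. Pgk1 fell by 0.75, the lactate carrier gene Slc16a3 by 0.84, Hk1 by 0.66 and the glucose transporter gene Slc2a1 by 0.61. Only Hk2, Aldoc and Slc16a1 had a pooled difference above 0, and none was called, with Hk2 at 0.08 in OGP and 0.94 in OGE. Gapdh, which has many processed pseudogenes with which it can share reads, was at 4.53 to 48.0 FPKM without relation to the groups, and no difference is read from it.

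Other hypoxia targets moved with them in part. Of 25, 7 fell, 1 rose, 9 lay below and 2 above, with a list median of -0.29, and without control replicate 2 only 4 fell, as in OGP and OGE each. Leaving out control replicate 1 and OGE replicate 3, 7 fell and 0 rose. Ak4, a mitochondrial adenylate kinase, fell from 14.2, 14.8 and 15.8 FPKM to 6.56, 5.54 and 5.58 in OGP and 6.97, 8.07 and 8.09 in OGE. Ddit4, an inhibitor of mTORC1, fell by 0.95, Fam162a by 0.86 and the oxygen sensor gene Egln1 by 0.59. Vegfa, the angiogenic growth factor gene, was the exception that rose (0.61), with 11.8 ± 0.278 FPKM in control, 13.0 ± 0.783 in OGP and 25.5 ± 2.81 in OGE. Its call was not made in OGP and OGE each, and it ended without OGP replicate 1 or OGE replicate 3.

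The list of secreted proteins of the acute phase and of inflammation had the lowest list median, -1.58, at -1.73 in OGP and -0.97 in OGE. Of 14 tested, 10 fell, 1 rose, 10 lay below and 1 above, and 9 fell without control replicate 1 and OGE replicate 3. Il33, an alarmin of the IL-1 family, went from 46.2, 31.4 and 36.4 FPKM to 3.97, 4.44 and 4.79 in OGP and 5.61, 5.61 and 4.71 in OGE, a log2 difference of -2.84 (SE 0.12, adjusted p = 2.34e-06, limma). Lcn2, which binds iron-carrying siderophores, went from 30.2, 20.4 and 24.0 FPKM to 2.60, 2.79 and 3.23 in OGP and 4, 4.21 and 2.68 in OGE. In these genes the OGP and OGE libraries were not called apart. Orm1 fell by 2.78 and Sprr1a by 2.96, both with paralogs that can share reads. Sprr1a, a structural protein of squamous cells, is on the list though it is neither secreted nor of the acute phase. Serpina3n fell by 1.63 and the pentraxin gene Ptx3 by 1.52. Chil1, a chitinase-like protein, fell by 2.43 but stood at 24.6 to 32.2 FPKM in control, 1.10 to 1.83 in OGP and 12.5 to 16.3 in OGE. The ferroxidase gene Cp was the member that rose (0.94).

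Of 22 genes of the IL-6 family and STAT3, 7 fell, 1 rose, 4 lay below and 2 above, with a list median of -0.34, and 4 fell in the fit of 2 groups and 3 in OGP and OGE each. With control replicate 1 and OGE replicate 3 left out, 8 fell and 1 rose. Il6 itself went from 16.4, 14.8 and 10.9 FPKM to 1.93, 3.57 and 3.62 in OGP and 4.06, 4.33 and 3.03 in OGE (log2 difference -1.91, SE 0.20). Stat3 had 32.8, 33.1 and 35.2 FPKM in control, 12.1, 11.6 and 11.5 in OGP and 21.6, 22.7 and 21.8 in OGE, 3 groups without overlap. Cebpd, a transcription factor of the acute phase, followed the same order, at 67.3 to 127, 29.3 to 31.6 and 56.3 to 61.5 FPKM. In all, 10 of the 22 were higher and 1 was lower in OGE than in OGP. The kinase gene Pim1 rose, from 2.37 to 4.77 FPKM in control to 8.31 to 9.61 in OGP and 12.8 to 16.6 in OGE.

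Genes of the extracellular matrix were lower in part. Of 34, 15 fell, 1 rose, 15 lay below and 2 above, with a list median of -0.44, and the call held in OGP and OGE each for 8. Without control replicate 1 and OGE replicate 3, 16 fell and 2 rose. Col1a1, the main chain of collagen I, had 622, 935 and 775 FPKM in control, 421, 355 and 373 in OGP and 362, 404 and 343 in OGE (log2 difference -1.03, SE 0.13, adjusted p = 0.000493, limma). Sparc, which binds collagen, went from 589, 630 and 560 FPKM to 334, 332 and 326 in OGP and 240, 274 and 224 in OGE. Col6a1 and Col6a2 fell by 1.32 and 1.43 and were lower in OGE than in OGP. Lox, which cross-links collagen, was called lower (-1.10) but overlapped, since OGE stood at 206 to 291 FPKM beside 250 to 349 in control and 73.1 to 80.3 in OGP. Lamb1, a laminin chain, rose by 0.87. Of 24 matrix proteases and inhibitors, 10 fell and 3 rose, with 11 below and 2 above, and 3 fell and 1 rose in OGP and OGE each. Without the libraries that stood apart, 9 fell and 3 rose. Timp3, an inhibitor bound to the matrix, went from 6.2, 5.07 and 5.25 FPKM to 2.19, 2.20 and 1.76 in OGP and 1.99, 2.31 and 1.81 in OGE, and with Pkdcc, a secreted kinase (-1.75), and C1qtnf6 (-1.28) was closest between the groups. The protease Adamts7 rose by 1.06. Mesenchymal markers, which include Col1a1 and Col1a2, summed to 1280 to 1650 FPKM in control, 1190 to 1290 in OGP and 875 to 1020 in OGE, and their part in these results was not tested. The largest fall among them in FPKM was that of Col1a1, with means of 777, 383 and 369 FPKM, while Acta2 stood at 145, 276 and 89.7 FPKM and Vim at 483, 556 and 441. Of the 8 markers tested, 1 (Nt5e) rose and 1 (Col1a1) fell, with a median of 0.01.

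**Figure D4:**
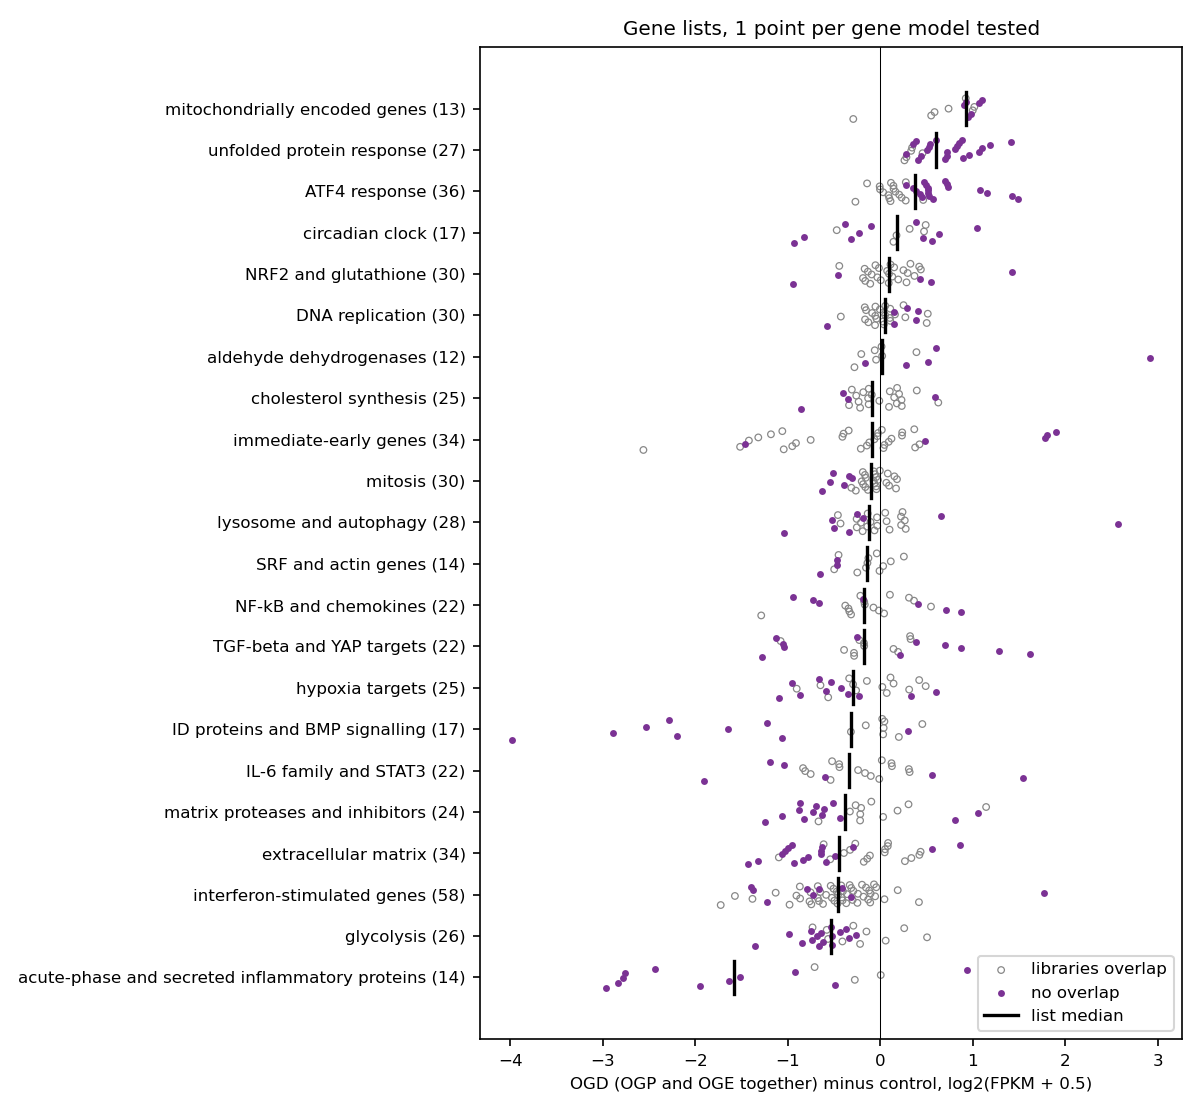
Log2 difference of the 6 OGD libraries from control on log2(FPKM + 0.5) (x axis) for each tested gene model (points) of 22 lists (rows, number tested in parentheses), filled where OGD and control libraries did not overlap, with the list median as a bar. Mitochondrially encoded genes (0.93) and the unfolded protein response (0.60) stand highest and acute-phase proteins (-1.58) lowest. Most interferon-stimulated points are open, and most of all genes tested overlapped too.

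Single genes that fell in both OGP and OGE came from several pathways. Rasl11a, a small GTPase of the Ras family, had 36.9, 45.6 and 41.7 FPKM in control, 1.18, 1.37 and 1.59 in OGP and 6.39, 6.54 and 5.96 in OGE, a log2 difference of -3.55 (SE 0.092, adjusted p = 1.17e-07, limma). S1pr1, a receptor for sphingosine 1-phosphate, went from 16.8, 16.0 and 13.9 FPKM to 2.74, 3.09 and 2.95 in OGP and 1.09, 1.63 and 0.952 in OGE. Rprm, a protein of G2 arrest, went from 5.81, 9.97 and 9.47 FPKM to 1.42, 1.25 and 1.14 in OGP and 0.422, 0.485 and 0.265 in OGE. OGE thus lay between the others in Rasl11a and beyond OGP in S1pr1 and Rprm. Ankrd55 (-2.56) and the alkaline phosphatase gene Alpl (-2.43, from 4.17 to 5.71 FPKM in control to 0.352 to 0.636) were not called between OGE and OGP.

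A fall in the mean of OGP and OGE could also come from OGE alone. Of 58 interferon-stimulated genes, 22 were called lower, beside 4.94% of all genes tested, and 6 of these 22 lay below in all 6 OGD libraries. Called or not, 8 of the 58 lay below, beside 11.8% of all genes tested. In OGP and OGE each, 2 of the 58 were called lower, beside 356 of the 13245 genes tested. These 2 counts are near the shares over all genes. The list median was 0.13 in OGP and -0.98 in OGE, and 52 of the 58 were lower in OGE than in OGP. Mx1 had 17.0 to 26.3 FPKM in control, 16.7 to 20.2 in OGP and 1.26 to 2.04 in OGE. Of 34 listed immediate-early genes, 11 were likewise called lower, with 1 below in all 6 libraries and 0 called lower in OGP and OGE each. Arc, an immediate-early gene not on the list, lay below and was called lower in OGP (-1.30) and in OGE (-3.15). Fos had 49.4 to 83.1 FPKM in control, 59.6 to 71.7 in OGP and 1.01 to 1.26 in OGE. In the fit of 2 groups, which counts this spread as error, 2 and 0 genes of these lists were called lower. Without control replicate 1 and OGE replicate 3, 20 interferon-stimulated genes were called lower and 1 higher, and 12 immediate-early genes lower and 3 higher. Ifitm1, Etv4, Etv5 and Dusp4 are the DEGs of these lists that lay above.

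Among the DEGs without overlap, Acsbg1, an acyl-CoA synthetase gene, and Ctsw, a cathepsin gene, had OGE far above OGP. Acsbg1 had 0.0818 to 0.318 FPKM in control, 0.597 to 0.869 in OGP and 7.72 to 10.6 in OGE. Ctsw had 0.0437 to 0.239, 0.694 to 1.30 and 8.20 to 9.05 FPKM. In the other direction, Abi3bp, a matrix protein, had 35.1 to 46.7 FPKM in control, 26.8 to 32.9 in OGP and 3.55 to 6.03 in OGE, and Arc, a synaptic immediate-early gene, had 10.0 to 14.7, 3.49 to 5.35 and 0.717 to 1.10. All these lay on the same side of control in both groups, but their place in OGE was far from that in OGP. Abi3bp was not called in OGP, where its difference from control was -0.38 (adjusted p = 0.136, limma). Acsbg1 passed the filter through its level in OGE, with a mean of 8.94 FPKM there beside 0.188 in control and 0.692 in OGP.

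Other lists held DEGs in both directions or few of them. Of 22 TGF-beta and YAP targets, 4 rose and 5 fell, among them Ctgf (1.62) and Nedd9 (1.29) higher and the ligand genes Tgfb2 (-1.27) and Tgfb3 (-1.12) lower. Of 22 NF-kB genes and chemokines, 2 rose (Ccl2, 0.71, and Tnfaip2, 0.87) and 4 fell, among them Cxcl1 (-0.94). Of 17 clock genes, 5 lay above and 6 below, with a higher level of Arntl (0.63) and lower levels of Nfil3 (-0.93) and Dbp (-0.83) among the DEGs. Of 25 genes of cholesterol synthesis, 2 rose, Idi1 and Tm7sf2, and 1 fell, Hmgcs1 (-0.85). Of 30 NRF2 and glutathione genes, 1 rose, Slc7a11, and 1 fell, Gpx1 (-0.94). Of 28 genes of lysosomes and autophagy, 2 rose, Ctsw and the cargo receptor gene Sqstm1 (0.66), and 1 fell, Tfeb (-1.04), a master regulator of lysosomes. Of 14 SRF and actin genes, Mkl1 fell (-0.65), and 3 fell without control replicate 1.

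Few genes of the cell cycle were called. Of 30 mitotic genes, 1 fell, the kinase gene Aurka (-0.63), 6 lay below and 0 above, and without control replicate 1 there were 3 that fell. Of 30 genes of DNA replication, 0 were called by limma in either direction, 9 were higher and 2 lower at an unadjusted p under 0.05, voom called 0, and without control replicate 1 there were 2 higher and 2 lower. The list medians were -0.10 and 0.05.

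The members also differed in kind of transcript, which the rule did not use directly. Of the 491 DEGs above, 74.3% were protein coding and 15.7% (77) were lincRNAs, antisense RNAs or processed transcripts. Of the 538 DEGs below, 95.5% were protein coding and 1.67% (9) were of these kinds, beside 83.1% and 4.89% of all genes tested. The median gene length was 2880 bases above, 4295 below and 3783 over all genes. Length and kind thus moved together, and were not separated. The filter took the mean over all libraries, of which more were OGD than control. A gene near the filter could therefore pass more easily when higher after OGD than when lower. Whether this shaped the contrasts in kind and length was not tested. The median level was 2.55 FPKM in control and 5.48 after OGD for DEGs above, and 8.99 and 4.63 for those below, values that the rule itself used and from which nothing is read.

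At the limit of the rule stood genes with small differences and some with larger ones. Zdhhc5 and Msl3 lay just inside above, at 0.20 and 0.26, as did Arhgap18 at 0.94. Exoc7 (-0.19), Fbxo5 (-0.28) and Ifitm3 (-0.41) lay just inside below, and Rac1 (-0.20), Tsc22d4 (-0.28) and Fkbp1a (-0.27) just outside. Just outside above were Mir7059 (1.29), Mir6951 (1.58) and Gm36996 (1.07), none of them a DEG, which were listed at 0 in all controls and in at least 1 OGD library.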

How the data were processed

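Poly-T selected RNA of HT22 cells was sequenced, and the authors aligned reads to mm10 with HISAT2 2.0.5 and counted them per gene with featureCounts. The deposited values are FPKM per gene. No source used here names the tool that made the FPKM. The labels and the study's methods name different RNA extractions. Values of 54532 genes were taken as log2(FPKM + 0.5). Those averaging 0.5 FPKM or more across the 9 libraries entered limma 3.58.1 (trend, R 4.3.3) on 3 group means, with Benjamini-Hochberg adjustment over all genes tested. The pooled contrast was the mean of OGP and OGE minus control, and scripts were tested on simulated data. Reads were recovered from FPKM and gene length for voom. Comparisons of OGP and of OGE with control share the control libraries.

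Named genes were, among DEGs without overlap, the 12 highest and 12 lowest by the smaller of their differences in OGP and OGE, the 4 highest and 4 lowest by OGE minus OGP, up to 4 DEGs of each list with the largest difference, the 3 genes on each side of each limit, and the 3 in each direction closest between OGP and OGE. Of the genes taken by this rule, 2 are not reported here. Other genes were named from the lists after their values were seen. The members and lists were chosen with earlier results of these data known. Alternatives covered the pseudocount, the filter, the scaling, each library left out, a replicate block and the fold.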

Additional observations from a re-analysis of the deposited data

Results flagged for a closer look

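Derl3 had 1 OGD library apart from the others. OGP replicate 1 stood at 1.88 FPKM beside 1.21 to 1.35 in the other 5, a gap of 0.767 of the whole range, above the limit of Dixon's test for 6 values. Of 103 genes looked at, this was the only one, and chance flags about 1 in 20.

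The difference between OGE and OGP was itself tested by limma over all genes, and 42 of the named genes passed, 21 higher and 21 lower in OGE, so that their differences from control were not the same in the groups. Each value is OGE minus OGP on log2(FPKM + 0.5). Lower in OGE by the largest amounts were Fos (-5.39), Mx1 (-3.10), Cxcl10 (-2.80), Abi3bp (-2.55), Ier2 (-2.27), Rsad2 (-1.97), Arc (-1.85), Ctgf (-1.75), Adamts1 (-1.46), Ccl5 (-1.19), Tgfb2 (-1.18), S1pr1 (-1.01) and Rprm (-1.0). Smaller differences of this sign were those of Nedd9 (-0.99), Arhgap18 (-0.95), Col6a2 (-0.94), Trib3 (-0.92), Cxcl12 (-0.85), Aldh3a1 (-0.76), Col6a1 (-0.76) and Id3 (-0.61). Higher in OGE by the largest amounts were Acsbg1 (2.98), Chil1 (2.90), Adam12 (2.80), Ctsw (2.62), Nos2 (2.27), Sprr2e (1.99), Rasl11a (1.86), Hmga2 (1.71), Lox (1.67), Atg9b (1.18), Sprr1a (1.16) and Orm1 (1.07). Smaller ones were those of Dusp4 (0.96), Cebpd (0.94), Tnfaip2 (0.91), Stat3 (0.88), Pfkfb3 (0.79), Adamts7 (0.77), Pim1 (0.72), Slc7a11 (0.71) and Id1 (0.67). Of the 42 differences, 23 passed under all alternatives, 15 were lost only at a fold threshold of 2, and those of Id3, Pim1, Id1 and Orm1 were lost under others.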

How the results depend on the processing

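No named gene's difference changed sign. Counts were scored by size alone, which cannot show a reversal. Of 172 values of the main counts under alternatives, 148 stayed within 1.5 times the count reported. The larger direction did change in some. DEGs after OGD, 620 higher and 654 lower, became 765 and 763 with a pseudocount of 0.1. They became 690 and 606 under median scaling and 838 and 772 in voom, while the other alternatives kept more lower. Between OGE and OGP, 449 higher and 626 lower, only the absence of a fold threshold gave more higher. With no fold threshold, 1782 genes were higher and 2086 lower after OGD, 1192 and 1423 of them without overlap, and 1400 were higher and 1350 lower in OGE than in OGP. At a fold threshold of 2 these numbers were 164 and 194, 129 and 168, and 135 and 258. A call in OGP and in OGE each left 295 and 356, of which 286 and 347 did not overlap. A gap of 1.5-fold between the nearest OGD and control libraries left 88 above and 142 below. Without control replicate 1, genes without overlap numbered 2408 above and 2823 below, where fewer control libraries have to be cleared. Without that library and OGE replicate 3, an alternative chosen after seeing the data, they numbered 2804 and 3175, of which 803 and 874 were DEGs. Leaving out 1 library at a time gave 548 to 822 DEGs higher and 609 to 863 lower, 487 to 731 and 530 to 791 of them without overlap, 1388 to 2408 genes above and 1622 to 2823 below, and 361 to 530 higher and 521 to 693 lower in OGE than in OGP.

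Voom on recovered reads called 838 higher and 772 lower. With a replicate block 615 were higher and 651 lower, 489 and 535 of them without overlap, and 438 were higher and 605 lower in OGE than in OGP. Deviations of libraries with the same number correlated at -0.177 to 0.319, so the numbers were not taken as pairs. The share of calls that were higher was 48.7%, and 45.8% and 53.2% under quantile normalization and median scaling. Of 92 named DEGs, 55 kept the call under all alternatives scored for single genes. Among those alternatives, 28 lost it only at the fold threshold of 2 or in the fit of 2 groups. A call in OGP and in OGE each was not scored for single genes. Some of the 28 lack it, such as Aurka and Mkl1, not called in OGE, and Cxcl12, Adamts1, Abi3bp and Ier2, not called in OGP. The other 9 named DEGs were Aldh2, Idi1, Tm7sf2, Arntl, Sqstm1, Higd1a, mt-Nd1, mt-Nd5 and mt-Nd6. Genes of low FPKM rest on few reads.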

Other observations

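Groups of genes that were chosen after their values were seen are given as values only. Of 15 tested host genes of small nucleolar RNAs, 7 rose and 0 fell in limma, 10 lay above in all 6 OGD libraries and 0 below, with a median log2 difference of 0.58, and 0 were called between OGE and OGP. Gas5, a growth-arrest transcript, had 23.5, 23.1 and 23.8 FPKM in control, 41.5, 40.7 and 45.5 in OGP and 41.8, 36.3 and 45.4 in OGE. Of 18 tested selenoprotein genes, 2 rose and 3 fell, with a median of -0.07. Selenow fell from 125, 178 and 146 FPKM to 45.4, 47.6 and 50.6 in OGP and 37.1, 37.6 and 39.2 in OGE, and Selenoh and Gpx1 fell by 1.25 and 0.94 on the log2 scale. Hmga1, Hmga1b and Hmga2 rose, and the first of these share reads, so their separate values are uncertain.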
